A study of Mus musculus with 44 samples.

Results

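This account follows 10 genes that mark intestinal stem cells or respond to Wnt signalling, Lgr5, Lgr4, Axin2, Ascl2, Olfm4, Rnf43, Znrf3, Notum, Sox9 and Smoc2, through 20 RNA-seq libraries of mouse organoids. The genes were chosen by name as rows of the deposited count table, and all 10 are among its 19733 gene symbols. The study asked how intestinal transcription factors act in stomach epithelium. In a first experiment, called the lines here, C57BL/6 gastric organoids carried a lentivirus for CDX2, for HNF4A or for the neutral product GFP, with 3 libraries each from lines numbered 1 to 3, and 2 libraries of C57BL/6 small intestine organoids without a named construct served as reference. In a second, the enhancer experiment, all organoids came from C57BL/6 stomach antrum and overexpressed HNF4A, and they had both copies of an enhancer 3' of Cdx2 (wild type), 1 copy (heterozygous deletion) or none (homozygous deletion), with 3 libraries each. The sources used here give no ages and do not say whether replicates came from separate animals or cultures, so p-values measure the spread between libraries, which may be technical. The experiments were fitted separately and are never compared with each other.

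Wnt ligands bind Frizzled and LRP receptors on the cell surface and stabilise β-catenin, which then activates transcription with TCF and LEF factors. Rnf43 and Znrf3 are ubiquitin ligases that remove Frizzled from the membrane, and R-spondins, bound by Lgr4 and Lgr5, relieve this brake. Axin2, Rnf43, Znrf3 and Notum are themselves induced by the pathway and limit it, and in intestinal crypts and antral glands Lgr5 marks cycling stem cells at the gland base.

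Position and promoter sequence were taken from RefSeq (GRCm38.p6, the assembly of build mm10). Of the 10 genes, 5 lie on chromosome 11: Znrf3 at 5276329 to 5444847, Rnf43 at 87663087 to 87735539, Axin2 at 108917828 to 108950783, Sox9 at 112782210 to 112787757 and Notum at 120653788 to 120661193. Lgr4 lies on chromosome 2 at 109917647 to 110014257, Ascl2 on chromosome 7 at 142966822 to 142969264, and Lgr5 on chromosome 10 at 115450314 to 115587780. Olfm4 lies on chromosome 14 at 80000302 to 80023141 and Smoc2 on chromosome 17 at 14279490 to 14404790. Promoter windows of 300 bases, from 250 before to 50 after a transcript start, were matched for 5 of the 10 genes. The 2 shown here belong to Olfm4, the gene with the largest fitted rise, and to Axin2, the general Wnt target, whose levels overlapped between all groups; both are on the plus strand, at chr14:80000052-80000351 and chr11:108920099-108920398, and capitals mark a match to any motif searched.
Olfm4: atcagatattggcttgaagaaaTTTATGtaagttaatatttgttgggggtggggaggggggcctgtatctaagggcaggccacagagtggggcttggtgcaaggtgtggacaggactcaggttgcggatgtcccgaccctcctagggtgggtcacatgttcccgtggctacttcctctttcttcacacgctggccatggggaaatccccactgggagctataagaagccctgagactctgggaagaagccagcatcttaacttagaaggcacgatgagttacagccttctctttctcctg
Axin2: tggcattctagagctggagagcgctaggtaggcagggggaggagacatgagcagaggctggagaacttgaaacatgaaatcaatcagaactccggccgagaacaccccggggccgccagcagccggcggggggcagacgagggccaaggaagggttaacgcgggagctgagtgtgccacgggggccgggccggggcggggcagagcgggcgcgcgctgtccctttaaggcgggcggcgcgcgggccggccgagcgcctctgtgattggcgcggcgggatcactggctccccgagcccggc
The motifs were CTTTGAT or CTTTGTT for TCF/LEF, TTTATG or TTTATA for CDX, and CAAAGTCCA or CAAAGGTCA for HNF4, each on both strands. The Olfm4 window held 1 match, TTTATG on the plus strand, starting 228 bases before the transcript start. CDX letters of this kind occur in 22.8% of 32851 promoter windows, TCF/LEF letters in 9.33% and HNF4 letters in 0.95%. The windows of Axin2, Ascl2, Lgr4 and Rnf43 held no match to any of these letters. The Axin2 window begins at 108920099, inside the gene span that begins at 108917828. It therefore belongs to a later transcript start, and the first start of Axin2 was not searched.

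Library totals ran from 6180498 to 11465309 counts, and levels are in CPM, the counts per 1000000 of a library's TMM-scaled total. A floor of 3 counts corresponds to 0.256 to 0.473 CPM in a single library. As a check of the labels, Cdx2 was at 62.0 to 288 CPM in the CDX2 lines, 3.19 to 7.44 CPM in the GFP lines and 272 to 282 CPM in small intestine organoids, and Hnf4a was at 289 to 502 CPM in the HNF4A lines, 186 to 441 CPM in the CDX2 lines and 95.7 to 158 CPM in the GFP lines. In both cases transgene and mouse gene may share reads. In the enhancer experiment Cdx2 was at 16.7 to 58.5 CPM in wild-type, 5.55 to 18.4 CPM in heterozygous and 0.199 to 1.36 CPM in homozygous libraries, so wild-type and heterozygous libraries overlapped. For the RNA libraries of the gastric lines, one label field names small intestine, while the tissue field names gastric organoids. The summed level of 8 stomach markers was 2816 to 7816 CPM in the GFP lines and 0.838 to 8.12 CPM in small intestine organoids. Wild-type replicate 3 of the enhancer experiment stood apart from the other 8 libraries in Ddx3y, a Y-linked gene, at 101 CPM against at most 0.227 CPM, so the comparisons of the 10 genes with wild type are also given without it.

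Of the 10 genes, Notum alone was called in small intestine organoids against each of the 3 kinds of gastric line. Notum encodes a secreted enzyme that inactivates Wnt ligands, and it was nearly absent in small intestine organoids. Sox9, a transcription factor of crypt base and progenitor cells, was lower against the GFP and the HNF4A lines. Olfm4, a secreted glycoprotein that marks intestinal stem cells, was called higher against the same lines. However, 99.6% of its small intestine reads came from replicate 2, and replicate 1 was at the floor of 3 counts. Neither gene passed against the CDX2 lines. Against the GFP lines, 1 gene rose and 2 fell of 10 tested, where 27.1% of all 12720 tested genes were called at an adjusted p under 0.05 in edgeR's quasi-likelihood test (14.2% higher and 12.9% lower). Against the HNF4A lines 1 gene also rose and 2 fell (12.5% of all genes called, 5.83% higher and 6.64% lower), and against the CDX2 lines 0 rose and 1 fell (11.3%, 5.63% higher and 5.67% lower). DESeq2 called 4 members against GFP (33.3% of all genes), 2 against CDX2 (20%) and 4 against HNF4A (20.9%). These 3 comparisons share the 2 small intestine libraries. The levels of 7 genes did not overlap between small intestine and GFP libraries, beside 59.3% of all tested genes, and 6 of them were lower in small intestine, beside 28.9%. Against CDX2 and HNF4A lines, 3 and 5 genes did not overlap, beside 47.8% and 49.9%. In bulk libraries, fewer cells of a type and less RNA per cell cannot be told apart.

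Notum stood at 1.12 and 0.658 CPM in the small intestine organoids (18 reads over both libraries). In the GFP lines it was at 105, 64.1 and 88.7 CPM in lines 1, 2 and 3, in the CDX2 lines at 29.1, 55.1 and 20.0 CPM, and in the HNF4A lines at 14.8, 26.4 and 31.0 CPM. Every gastric library therefore lay above both small intestine libraries, and the GFP lines lay above all the others. The log2 change in small intestine was -6.56 ± 0.63 (SE) against GFP (adjusted p = 0.000371, edgeR), -5.25 ± 0.60 against CDX2 (adjusted p = 0.00241) and -4.72 ± 0.59 against HNF4A (adjusted p = 0.00286).

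Sox9 was at 118 and 156 CPM in small intestine organoids, against 366, 357 and 628 CPM in GFP lines 1 to 3. The CDX2 lines held 302, 211 and 308 CPM and the HNF4A lines 287, 313 and 551 CPM, so that no gastric library reached down to the small intestine level. The change was -1.72 ± 0.37 (SE, log2) against GFP (adjusted p = 0.00999, edgeR) and -1.49 ± 0.37 against HNF4A (adjusted p = 0.0321). Without small intestine replicate 1 the adjusted p was 0.101 against GFP and 0.266 against HNF4A. The call against HNF4A was also lost without small intestine replicate 2 (0.0617), HNF4A line 2 (0.0644) or HNF4A line 3 (0.0733). Against CDX2 the change of -1.0 ± 0.36 did not pass in edgeR (adjusted p = 0.0983) and passed in DESeq2 (adjusted p = 0.0409).

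Olfm4 had at least 1 read in 8 of the 11 libraries of the lines and more than 3 reads in 3 of them. Small intestine replicate 2 held 701 Olfm4 reads, or 76.9 CPM, and replicate 1 held 3 reads, or 0.279 CPM, so that 99.6% of the reads of this group came from 1 library. GFP lines held 0, 1 and 2 reads and HNF4A lines 0, 0 and 1. The ratio of summed, depth-scaled counts was 319 for small intestine against GFP, with a 95% exact counting interval of 109 to 1548, and 879 against HNF4A, with an interval of 157 to 34773; these intervals cover counting error only. The adjusted p was 0.0212 against GFP and 0.0347 against HNF4A in edgeR, and 0.698 and 0.506 without small intestine replicate 2. Leaving out any 1 GFP line gave 0.0626, 0.0678 and 0.0555 against GFP for lines 1, 2 and 3, and leaving out any 1 HNF4A line gave 0.0824, 0.11 and 0.105 against HNF4A.

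**Figure D1:**
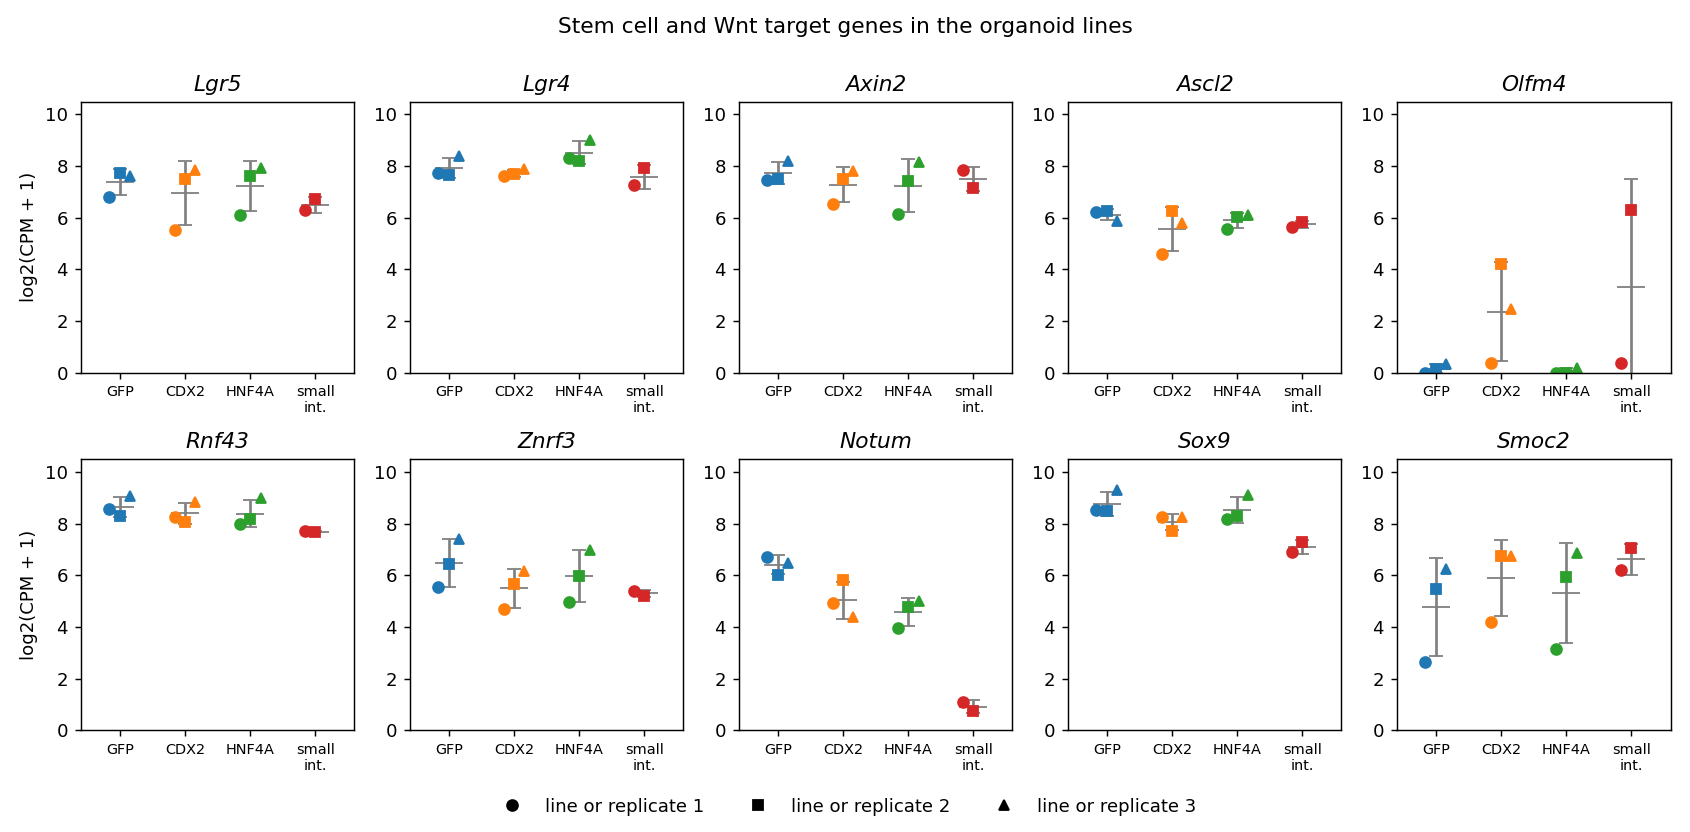
Levels of the 10 genes as log2(CPM + 1) in GFP, CDX2 and HNF4A gastric lines (3 libraries each) and small intestine organoids (2 libraries); symbols give the line or replicate number, grey bars the mean ± SD on this scale. Notum is at 1.12 and 0.658 CPM in small intestine and at 14.8 CPM or more in every gastric library, and Olfm4 is above 1 CPM in 3 of the 11 libraries.

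Among the R-spondin receptors, Lgr5 was at 76.8 and 103 CPM in small intestine organoids and at 112, 213 and 197 CPM in GFP lines 1 to 3. The groups did not overlap, but the change of -0.95 ± 0.66 (SE, log2) did not pass the test (adjusted p = 0.303, edgeR). CDX2 lines ranged from 44.8 to 228 CPM and HNF4A lines from 67.9 to 242 CPM, both spanning the small intestine values. Lgr4, the broadly expressed relative of Lgr5, averaged 196 ± 63.4 CPM (SD, n = 2) in small intestine, 211 ± 20.4 (n = 3) in CDX2, 249 ± 74.3 in GFP and 377 ± 123 in HNF4A lines. In this order only HNF4A stood clear of small intestine, with no overlap (151 and 241 against 293 to 519 CPM), and that difference of -0.95 ± 0.33 did not pass in edgeR (adjusted p = 0.0827) and passed in DESeq2 (adjusted p = 0.0331).

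Of the ubiquitin ligases, Rnf43 was at 208 and 203 CPM in small intestine and at 255 to 535 CPM over all 9 gastric libraries, with no overlap. Its change against GFP, -1.0 ± 0.36 (SE, log2), did not pass in edgeR (adjusted p = 0.0644) and passed in DESeq2 (adjusted p = 0.0247). Znrf3 was at 41.4 and 35.6 CPM in small intestine against 46.2, 86.0 and 170 CPM in GFP lines, a change of -1.39 ± 0.68 that did not pass (adjusted p = 0.151). Axin2, the scaffold protein of the β-catenin destruction complex that is widely used as a readout of Wnt signalling, was at 227 and 142 CPM in small intestine and at 176, 181 and 296 CPM in GFP lines. Its groups overlapped in all 6 comparisons of the lines, with log2 changes between -0.40 and 0.16.

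The remaining stem cell genes were close between the groups or varied widely within them. Ascl2, a Wnt-dependent transcription factor of intestinal stem cells, averaged 52.5 ± 5.36 CPM (SD, n = 2) in small intestine, 51.1 ± 26.1 (n = 3) in CDX2, 59.5 ± 11.6 in HNF4A and 68.8 ± 9.85 in GFP lines. Smoc2, a matricellular protein of Lgr5-positive cells, had its highest mean in small intestine, 102 ± 41.5 CPM, followed by CDX2 at 77.1 ± 51.7, HNF4A at 61.4 ± 54.4 and GFP at 41.1 ± 35.0. Neither gene passed a test in any comparison of the lines fitted without a line term.

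The proliferation markers differed between the same groups. The sum of 6 such markers was 1586 to 2091 CPM in small intestine organoids, 528 to 792 CPM in GFP lines, 506 to 1030 CPM in CDX2 lines and 729 to 855 CPM in HNF4A lines. Of these 6 genes, 5 rose in small intestine against each of the GFP, CDX2 and HNF4A lines, beside 14.2%, 5.63% and 5.83% of all tested genes. Their part in the differences above was not tested. The fibroblast list summed to 4.61 to 23.0 CPM over the 11 libraries of the lines.

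In gastric organoids with CDX2 or HNF4A, no member passed the test without a line term. None of the 10 was called in CDX2 against GFP (0.409% of all genes called), in HNF4A against GFP (0.142%) or in CDX2 against HNF4A (0.0236%). At an unadjusted p under 0.05, 3, 1 and 2 genes passed, beside 11.2%, 5.76% and 5.18% of all genes. DESeq2 called Notum alone in each of the comparisons with GFP and no member in CDX2 against HNF4A, where it called 3.62%, 1.64% and 1.04% of all genes. Gastric libraries that share a line number (9 pairs) deviated together from their group means (r across genes from 0.336 to 0.751), and a fit with the line number as a block called 4.54%, 0.786% and 0.220% of all genes. Within line numbers, 6 of the 10 genes moved one way in all 3 pairs in CDX2 against GFP (42.3% of all tested genes), with Olfm4 and Smoc2 higher and Rnf43, Znrf3, Notum and Sox9 lower in CDX2. In HNF4A against GFP this held for 7 genes (48.0% of all tested genes), with Lgr4 and Smoc2 higher and Axin2, Rnf43, Znrf3, Notum and Sox9 lower in HNF4A. Lgr4 was higher there by 0.60, 0.54 and 0.63 (log2) in lines 1, 2 and 3. In CDX2 against HNF4A 4 genes moved one way (33.6%), with Olfm4 higher and Lgr5, Lgr4 and Znrf3 lower in CDX2. The 3 comparisons share libraries, and their values stand side by side without a test of their likeness.

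Notum was lower in the HNF4A lines than in the GFP lines in all 3 lines, by 2.79, 1.26 and 1.5 on the log2 scale in lines 1, 2 and 3, with no overlap between the groups. The fitted change was -1.84 ± 0.40 (SE), with an adjusted p of 0.151 in edgeR, 0.111 with the block and 0.00142 in DESeq2. In the CDX2 lines it was lower by 1.84, 0.22 and 2.12, again without overlap. That change was -1.30 ± 0.39, with an adjusted p of 0.216 in edgeR, 0.116 with the block and 0.0486 in DESeq2. The groups without overlap numbered 3 of the 10 genes in CDX2 against GFP (16% of all genes) 1 in HNF4A against GFP (11.6%) and 2 in CDX2 against HNF4A (8.32%).

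Olfm4 gained reads in CDX2 lines 2 and 3, while CDX2 line 1 sat at the floor of 3 counts. The CDX2 lines held 3, 145 and 29 Olfm4 reads in lines 1, 2 and 3 (0.302, 17.5 and 4.58 CPM). All lay above the GFP and HNF4A libraries with the highest Olfm4, at 0.245 and 0.136 CPM. For line 1 this rests on 3 reads against 2 in GFP line 3. Of these 177 reads, 81.9% came from line 2. The ratio of scaled counts was 64.7 against GFP (95% exact counting interval 21.8 to 317) and 179 against HNF4A (31.6 to 7091). The adjusted p was 0.301 against GFP and 0.628 against HNF4A in edgeR, and with the block over all 11 libraries it was 0.0105 and 0.0367. That fit also joins the small intestine libraries to gastric lines 1 and 2 by number, although these are not paired, and a paired test of Olfm4 on gastric libraries alone was not made.

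A block fitted on the 9 gastric libraries alone, chosen after the data were seen, called 3 members in CDX2 against GFP (9.67% of all genes called). Znrf3 was lower by 0.89, 0.78 and 1.26 (log2) in lines 1, 2 and 3, with a blocked change of -0.98 (adjusted p = 0.00632, edgeR). Sox9 was lower by 0.27, 0.76 and 1.03, with -0.67 (adjusted p = 0.0463). Smoc2 was higher by 1.64, 1.32 and 0.50, with 1.16 (adjusted p = 0.0267). Lgr4 was called in CDX2 against HNF4A by the same fit, at -0.79 (adjusted p = 0.0356; 1.38% of all genes called), being lower by 0.71, 0.52 and 1.15. Olfm4 did not pass the filter on low counts among these 9 libraries, so its calls above rest on a fit that holds the unpaired small intestine libraries. In HNF4A against GFP this fit called no member, and 2.24% of all genes.

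**Figure D2:**
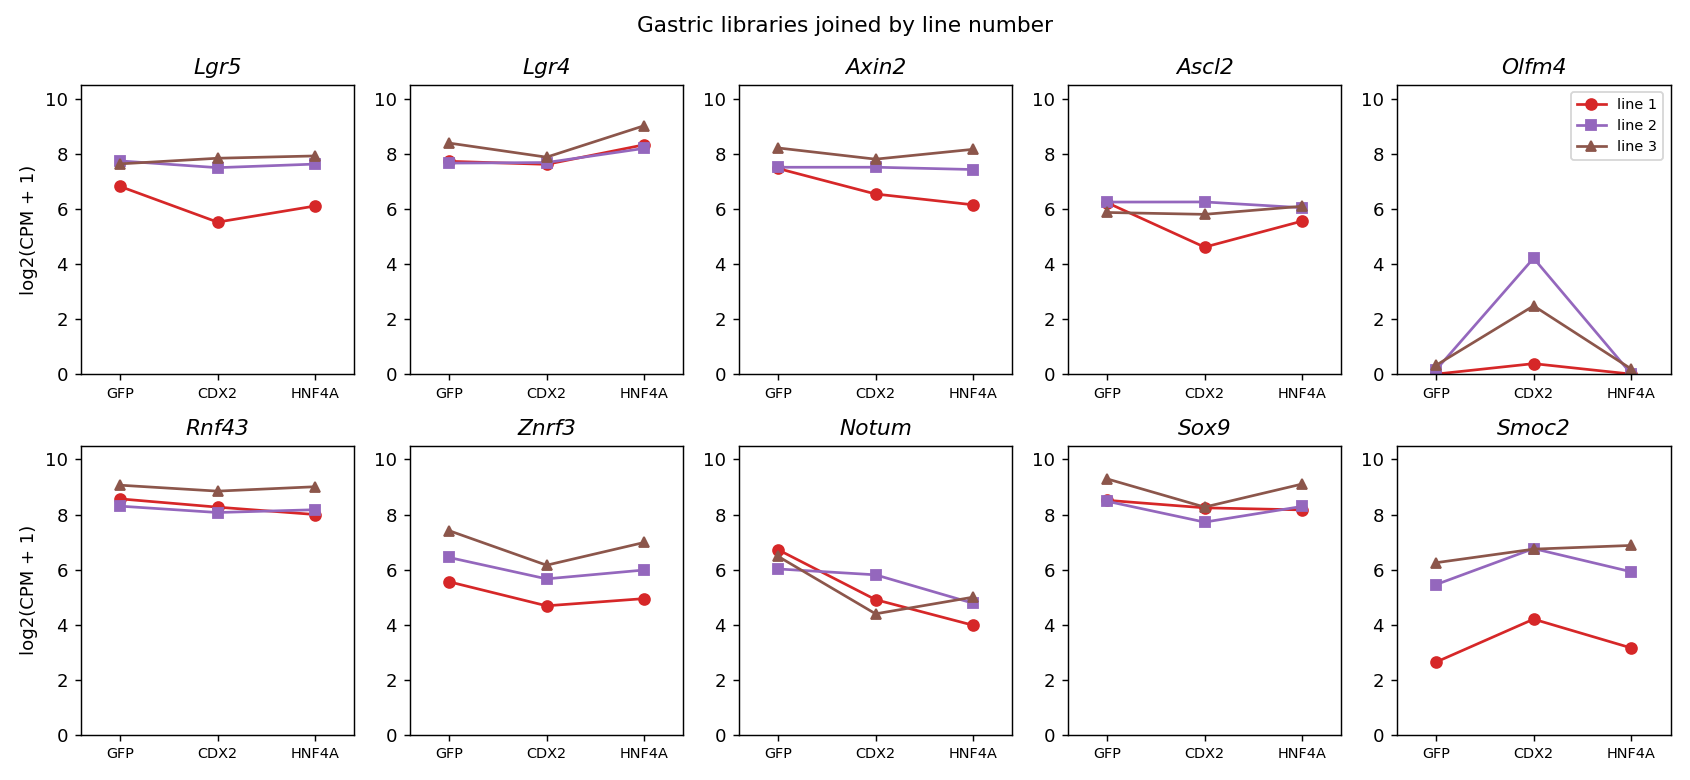
Levels of the 10 genes as log2(CPM + 1) in the 9 gastric libraries, with the kind of line on the horizontal axis; each coloured polyline joins the libraries of 1 line number. Smoc2 and Znrf3 have line 1 at the bottom in all 3 kinds, and Smoc2 is higher in CDX2 than in GFP within each line.

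Several of the genes differed between line numbers in the same direction in all 3 kinds of line. Smoc2 was at 5.23, 42.8 and 75.1 CPM in GFP lines 1, 2 and 3, at 17.4, 108 and 106 CPM in CDX2 lines and at 7.90, 59.6 and 117 CPM in HNF4A lines, so line 1 was lowest throughout. Line 3 exceeded line 1 in Smoc2 by 14.4-fold in GFP, 6.10-fold in CDX2 and 14.8-fold in HNF4A. Znrf3 showed ratios of 3.68, 2.85 and 4.22, Lgr5 of 1.76, 5.08 and 3.56, and Axin2 of 1.68, 2.42 and 4.09. Of the 10 genes, 8 were higher in line 3 than in line 1 in all 3 kinds of line, beside 29.6% of all tested genes, and none was lower in all 3, beside 31.1%. The 8 include Olfm4, at 0 against 2 reads in GFP and 0 against 1 read in HNF4A lines, and Sox9, at 302 against 308 CPM in CDX2 lines. A stomach mucin varied in the same order: Muc6 was at 2004, 3772 and 6923 CPM in GFP lines 1, 2 and 3 and at 10.3, 90.4 and 886 CPM in CDX2 lines. Its relation to the 10 genes was not tested.

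Across the 11 libraries of the lines, the genes with the profile nearest to Axin2 were Dzip3, Zfp62 and Xndc1, with a root mean square difference of centred log2 CPM of 0.23, 0.24 and 0.25. Those nearest to Lgr5 were Narf, Zfp260 and Sertad4, at 0.24, 0.27 and 0.28. Other members were farther off: Znrf3 was the closest member to both, at 0.46 from Axin2 and 0.45 from Lgr5. Olfm4 had no near neighbour, the closest being Rnase1 at 1.34, Neurog3 at 1.61 and Mcpt2 at 1.63. Across the 9 enhancer libraries the nearest to Axin2 were Plcb1 at 0.15, Sgcd at 0.19 and Cbx6 at 0.19, and to Lgr5 Chp1 at 0.10, Kitl at 0.11 and Ccdc23 at 0.12; the closest members were Znrf3 for Axin2 (0.25) and Rnf43 for Lgr5 (0.18).

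Beyond the 10 genes, 130 other genes of Wnt signalling, Notch signalling and stem cells were listed, of which 105 were tested in the lines. In small intestine against GFP, 11 of the 105 rose (beside 14.2% of all tested genes) and 26 fell (beside 12.9%), with a median log2 change of -0.41 beside -0.01 over all tested genes. Of 15 tested Wnt and R-spondin receptors, 5 fell and none rose; Fzd3, a Frizzled receptor, changed by -7.03 ± 1.0 (SE, log2; adjusted p = 0.0022, edgeR), from 15.5, 13.9 and 35.4 CPM in the GFP lines to 0.186 and 0.110 CPM. Of 9 tested Wnt antagonists, 3 fell and none rose, among them Dkk3 at -7.17 ± 1.96 (adjusted p = 0.0243). Of 13 tested other Wnt targets, 3 fell and 1 rose. Prox1, a transcription factor, changed by -6.75 ± 2.01 (adjusted p = 0.0332) and Sp5 by -1.65 ± 0.41 (adjusted p = 0.0165), while Nkd1, at -4.98 ± 1.83, did not pass (adjusted p = 0.068).

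By size of change among the called genes of the lists, Sox2, Slc14a1, Atoh1, Aqp5, Tff2 and Wnt3 came first against GFP. Sox2, a stomach transcription factor, had 0 reads in both small intestine libraries and 43.0 to 116 CPM in the GFP lines, and Aqp5, a water channel of antral stem cells, changed by -9.35 ± 1.04 (SE, log2; adjusted p = 0.000781, edgeR). Tff2, a stomach trefoil peptide, had 0 and 1 reads in small intestine and 3.92 to 91.6 CPM in the GFP lines. Atoh1, the secretory lineage factor, had 0 reads in all GFP lines and 5.22 and 16.1 CPM in small intestine. Slc14a1 was at 3.82 and 42.7 CPM in small intestine replicates 1 and 2 and had 0 reads in the GFP lines, and Wnt3, the ligand made by Paneth cells, was at 1.40 and 6.37 CPM there with 0 reads in the GFP lines. Pla2g2a, another crypt gene, was at 929 CPM in replicate 1 and 11.5 CPM in replicate 2. Against CDX2 and HNF4A lines 5 and 6 of the 105 rose (beside 5.63% and 5.83% of all tested genes) and 15 and 11 fell (beside 5.67% and 6.64%); Sox2, Aqp5, Tff2 and Slc14a1 were again among the largest changes, with Fzd10 and Pla2g2a against CDX2 and Fzd3 and Atoh1 against HNF4A. Olfm4 and Slc14a1 were thus higher in replicate 2 and Pla2g2a in replicate 1.

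Against GFP, a single gene of the 105 was called in each of the CDX2 and HNF4A comparisons, beside 0.409% and 0.142% of all tested genes. It was Hopx, a homeodomain protein described in reserve intestinal stem cells, in both. Hopx was at 14.4, 21.4 and 13.2 CPM in GFP lines, 74.4, 96.9 and 74.8 CPM in CDX2 lines, and 82.7, 76.7 and 55.1 CPM in HNF4A lines. The log2 change was 2.33 ± 0.25 (SE; adjusted p = 0.00611, edgeR) in CDX2 and 2.13 ± 0.25 (adjusted p = 0.0117) in HNF4A. Small intestine organoids held 291 and 212 CPM, above every gastric library.

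**Figure D3:**
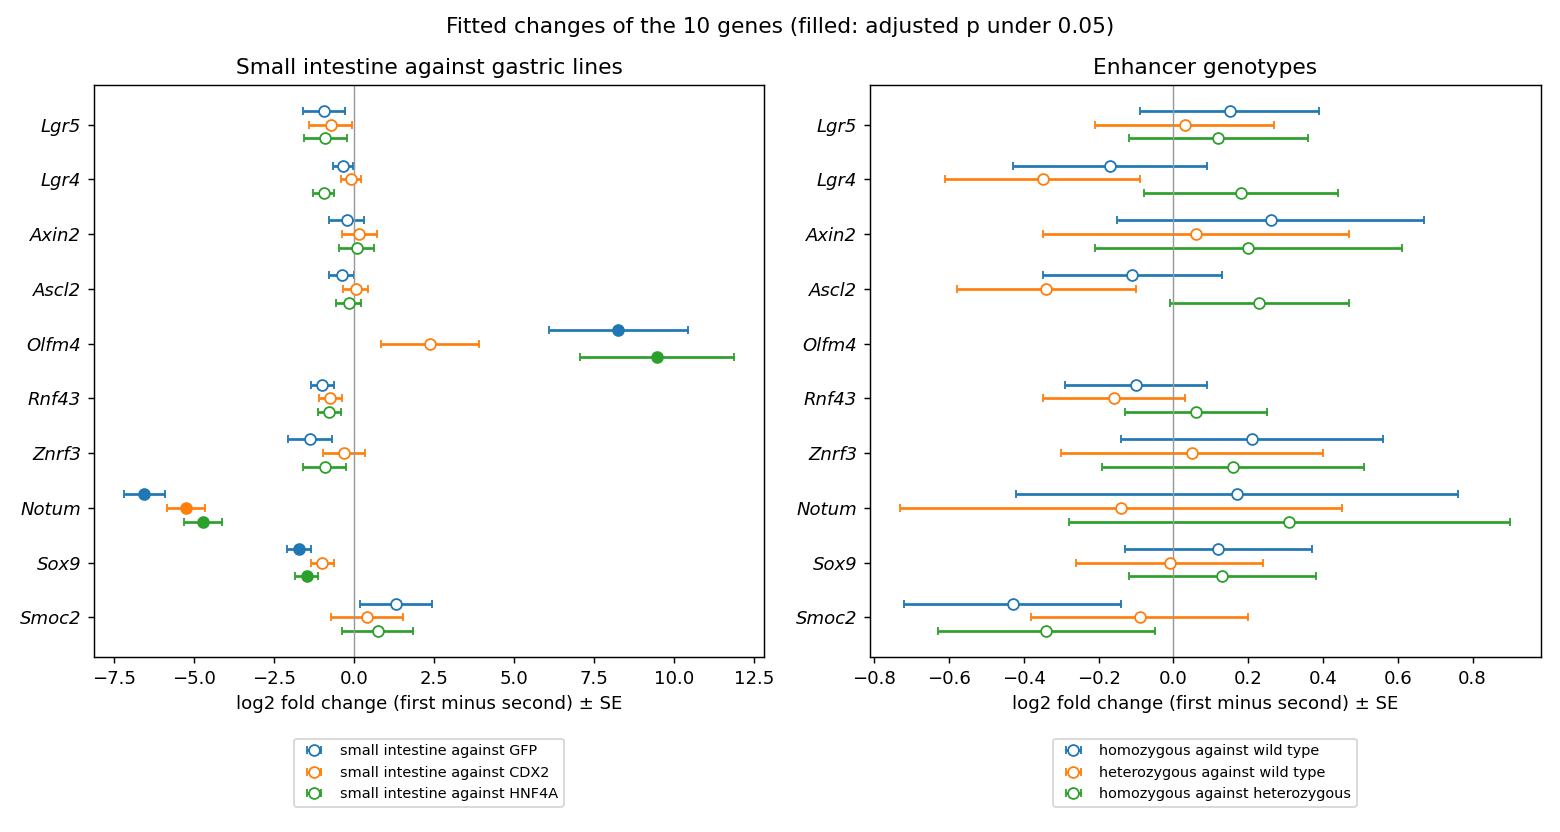
Fitted log2 changes ± SE of the 10 genes for small intestine against each kind of gastric line (left) and between the enhancer genotypes (right; Olfm4 was not tested there); filled points have an adjusted p under 0.05. The horizontal scales differ: Notum in small intestine lies between -6.56 and -4.72, and the enhancer changes lie between -0.43 and 0.31.

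None of these genes was called in the enhancer experiment. However, the edgeR fit called no gene at all there, Cdx2 included, although Cdx2 fell from 16.7 to 58.5 CPM in wild-type to 0.199 to 1.36 CPM in homozygous libraries. The lack of calls therefore does not show that these genes were unchanged. Of the 10, 9 were tested in the enhancer experiment, and none was called by edgeR in homozygous against wild type, heterozygous against wild type or homozygous against heterozygous organoids, where 0% of all 12593 genes were called in each. No member passed at an unadjusted p under 0.05 either, beside 4.59%, 8.93% and 0.262% of all genes. DESeq2 called 1.32%, 2.3% and 0.00617% of all genes and no member. The groups of all 9 genes overlapped in all 3 comparisons, beside 8.90%, 14.9% and 1.95% of all genes without overlap. Without wild-type replicate 3, Rnf43 and Smoc2 lay below wild type with no overlap in homozygous organoids. Lgr5, Ascl2 and Rnf43 did so in heterozygous organoids. Counted in either direction, 2 and 3 of the 9 genes were without overlap, beside 16.2% and 26.1% of all genes in either direction. The log2 changes ran from -0.43 to 0.26 in homozygous and from -0.35 to 0.06 in heterozygous against wild-type organoids.

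Axin2 was at 226, 154 and 63.5 CPM in wild-type replicates 1, 2 and 3, at 130, 175 and 157 CPM in heterozygous and at 154, 244 and 133 CPM in homozygous libraries. Wild-type values thus enclosed all heterozygous ones, but without replicate 3 the heterozygous value of 130 CPM and the homozygous value of 133 CPM lay below wild type. The change in homozygous organoids was 0.26 ± 0.41 (SE, log2; adjusted p = 0.999, edgeR). Lgr5 was at 196, 167 and 94.2 CPM in wild-type, 161, 153 and 152 CPM in heterozygous and 160, 196 and 151 CPM in homozygous libraries, a change of 0.15 ± 0.24 in homozygous (adjusted p = 0.999). Notum ranged from 16 to 51.9 CPM in wild-type, from 15.6 to 39.1 CPM in heterozygous and from 14.2 to 66.3 CPM in homozygous libraries. Smoc2 had the change farthest from 0, at -0.43 ± 0.29 in homozygous against wild type (adjusted p = 0.999), from 68.5, 88.0 and 36.7 CPM to 49.6, 49.0 and 45.2 CPM. Olfm4 had 0 reads in all wild-type libraries, 1 read in 1 heterozygous and 1 read in 1 homozygous library, all under the floor.

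**Figure D4:**
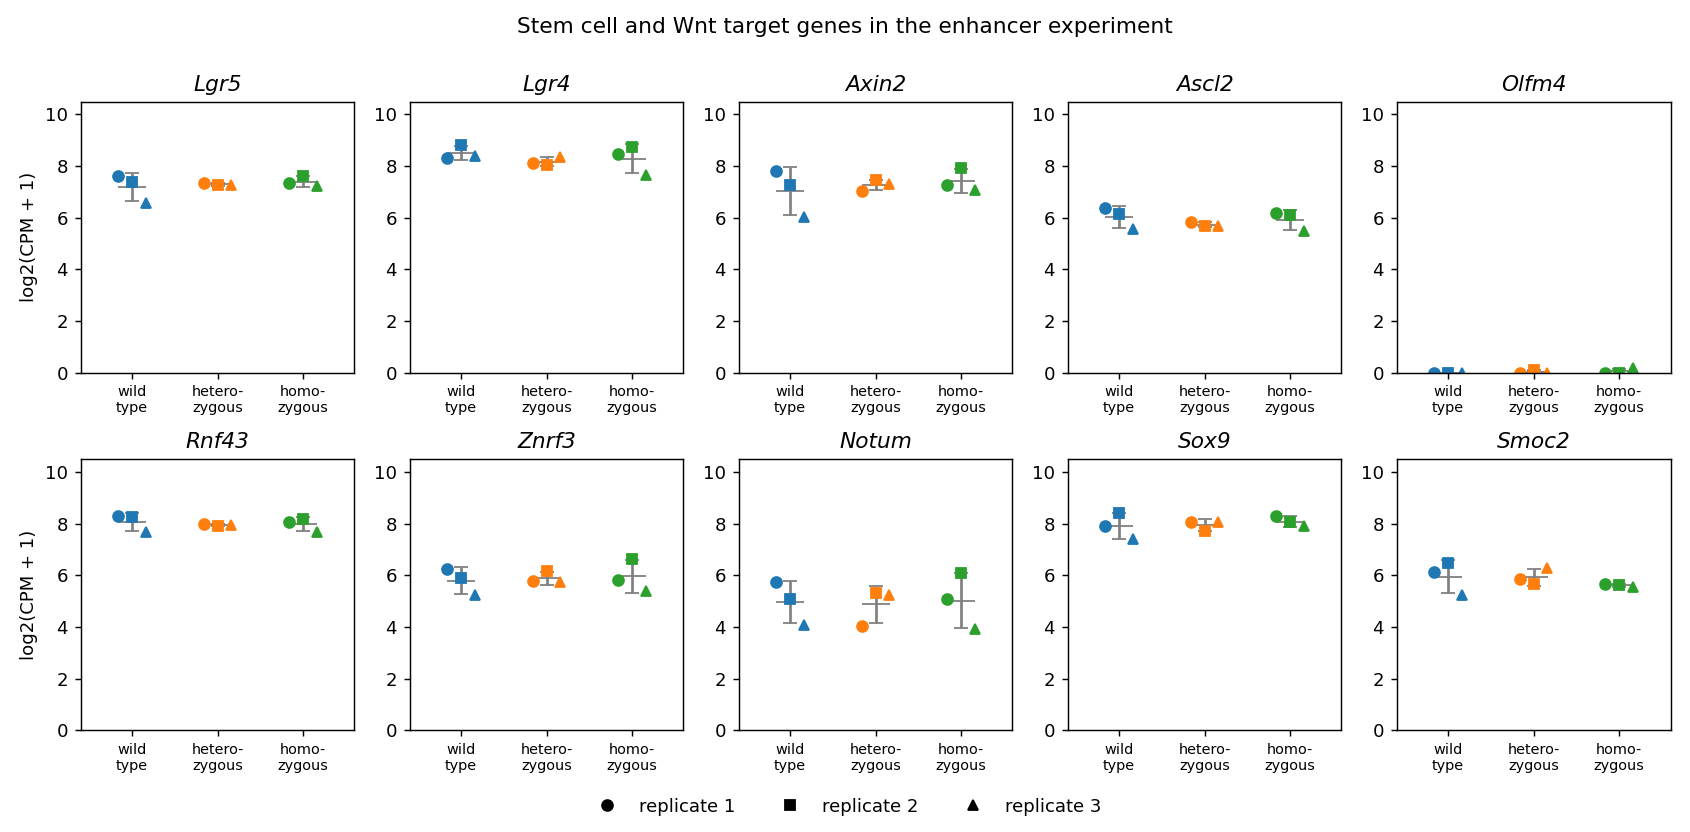
Levels of the 10 genes as log2(CPM + 1) in wild-type, heterozygous and homozygous HNF4A-overexpressing antrum organoids (3 libraries each); symbols give the replicate, grey bars the mean ± SD on this scale. The groups of the 9 tested genes overlap with all libraries, and wild-type replicate 3 is the lowest wild-type library for 8 of them; without it Rnf43 and Smoc2 do not overlap between wild type and homozygous, nor Lgr5, Ascl2 and Rnf43 between wild type and heterozygous.

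Leaving out wild-type replicate 3 changed the sign of several of these small differences. This library was the lowest of the wild-type libraries for 8 of the 9 genes, all but Lgr4, beside 35.0% of all tested genes. For 7 of the 9 it lay more than 1.5-fold below both others, beside 7.28% of all tested genes. Of the 13 other Wnt targets tested it was the lowest wild-type library for 9 and more than 1.5-fold below both others for 7, and of all 100 other listed genes for 47 and 24. Among those chosen after their values were seen, Tnfrsf19 was at 7.38 CPM against 121 and 288 CPM, Nkd1 at 6.11 against 56.6 and 107 CPM, Prox1 at 13.2 against 72.6 and 97.5 CPM, and Sp5 at 26.5 against 81.6 and 127 CPM. Because it was the lowest for 8 of the 9, leaving it out lowers their changes against wild type by construction. The signs without it are therefore no separate result. Without this library all 9 genes had a negative log2 change in homozygous (from -0.71 to -0.03) and in heterozygous organoids (from -0.55 to -0.20). None of them was called (lowest adjusted p 0.794, edgeR). With this library, 4 and 6 of the 9 were negative.

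The Wnt ligand gene Wnt3a varied in the same libraries far more than any of the 10 genes. It was at 0, 0.241 and 4.33 CPM in wild-type, 175, 1809 and 3099 CPM in heterozygous and 95.1, 196 and 2054 CPM in homozygous libraries, and had 0 reads in all 11 libraries of the lines. Rspo3 and Nog, which encode an R-spondin and a BMP antagonist, reached 69.2 and 73.4 CPM in the deletion libraries and at most 4.05 and 0.382 CPM in wild type. The 12 genes of the fibroblast list summed to 4.33 to 8.42 CPM in wild-type, 149 to 1933 CPM in heterozygous and 52.7 to 1640 CPM in homozygous libraries. At wild-type sums this low, a gene could pass the filter on low counts mainly through the deletion libraries. The sign shared by the tested genes was therefore largely set in advance. All 7 tested genes of this list had positive changes, with a median log2 change of 6.21 in homozygous and 7.08 in heterozygous against wild type. None was called by edgeR. DESeq2 called 6 higher in each, where it called 1.32% and 2.3% of all genes in homozygous and heterozygous against wild type. The replicate block called 4 higher in heterozygous and none in homozygous organoids, and its counts over all genes are given in the last section. Serpinh1, a collagen chaperone, averaged 1.18 CPM in wild-type, 415 CPM in heterozygous and 216 CPM in homozygous libraries, while Lum had 0 reads in all 9 libraries, and Dcn, Acta2 and Thy1 averaged at most 0.350 CPM in any group. In the 3 libraries richest in Wnt3a, heterozygous replicates 2 and 3 and homozygous replicate 3, Axin2 was at 175, 157 and 133 CPM, inside the range of all wild-type libraries (63.5 to 226 CPM); without wild-type replicate 3, 133 CPM lay below that range (154 to 226 CPM). Without these 3 libraries the changes ran from -0.38 to 0.56 in homozygous against wild type, with no call. In heterozygous against wild type they ran from -1.11 (Notum) to 0.11, from a single heterozygous library that is assumed to vary like the other groups. The part of Wnt3a, of the fibroblast genes and of wild-type replicate 3 in the levels of the 10 genes was not tested beyond these values.

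**Figure D5:**
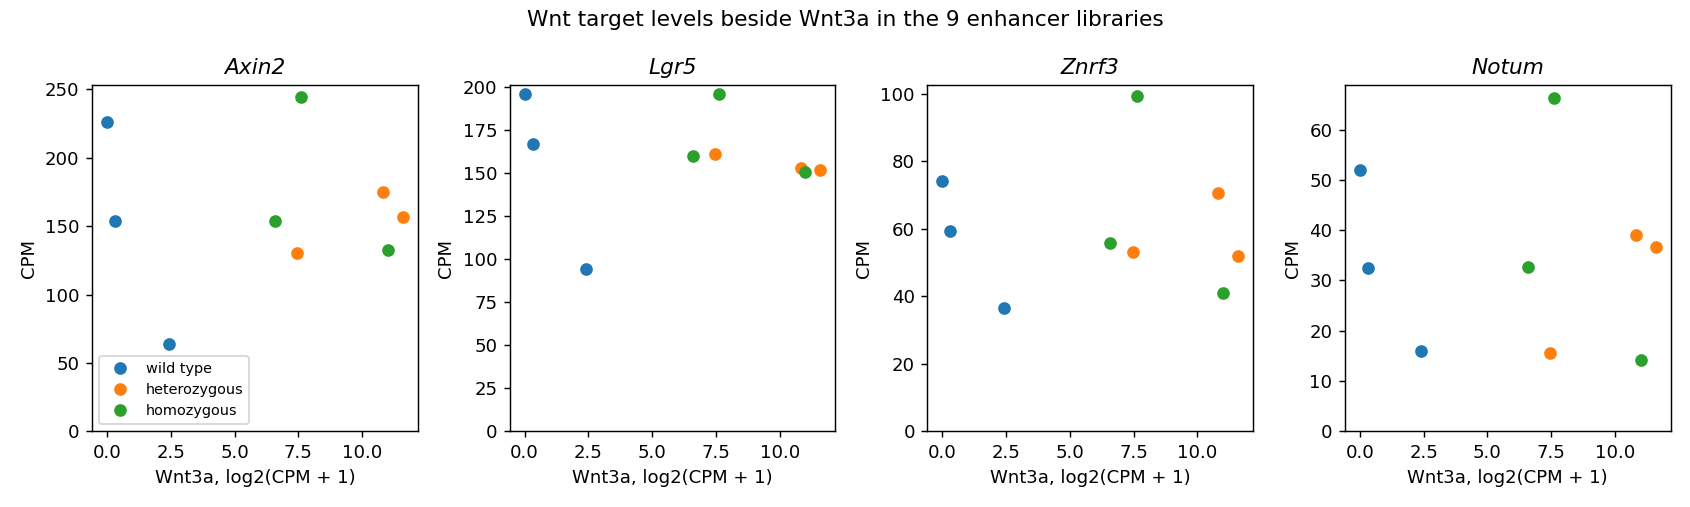
Levels of Axin2, Lgr5, Znrf3 and Notum (CPM) against Wnt3a, as log2(CPM + 1), in the 9 libraries of the enhancer experiment, coloured by genotype. Libraries with 1809 to 3099 CPM of Wnt3a have Axin2 between 133 and 175 CPM, and the lowest Axin2, 63.5 CPM, is in wild-type replicate 3.

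The other genes of the lists were also tested in the enhancer experiment. Of 100 tested, none was called by edgeR in any of the 3 comparisons, with median log2 changes of 0.09 in homozygous and 0.01 in heterozygous against wild-type organoids. DESeq2 called 2 higher and 1 lower in homozygous (beside 1.32% of all genes called), and 4 higher in heterozygous organoids (beside 2.3%). The replicate block called 1 higher in each, with its counts over all genes given in the last section. Without wild-type replicate 3, edgeR called none of 102 tested, with medians of 0 in homozygous and -0.08 in heterozygous organoids.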

How the data were processed

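The authors deposited unnormalized read counts for each gene symbol in each library. Per the submitters' processing notes STAR and mm10 were used, with Bowtie2, Cell Ranger and hg19 also named without a role. Per the labels' protocols, poly-A libraries were read as 150 bp pairs. Nothing used here states how reads were counted, on which annotation or by strand, and overlapping genes may share reads. Of the 44 samples, the 20 RNA libraries were analysed; other assays were not analysed here.

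The two-sided quasi-likelihood test of edgeR 4.0.16 (R 4.3.3), robust and with TMM factors, was run on genes kept by filterByExpr (minimum count 10, total 15), with 1 fit per experiment (11 and 9 libraries) and Benjamini-Hochberg adjustment over all tested genes. Standard errors are the size of the log2 change over the root of its F statistic. Alternatives were DESeq2 1.42.0, RLE size factors, no filter, the replicate number as a block, and each library left out; 2 more were added after seeing the data. The code was tested on simulated data.

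Deviations of same-number libraries from their group means correlated from 0.336 to 0.751 in 9 gastric pairs and from 0.188 to 0.53 in 3 heterozygous and homozygous pairs. Both sets were taken as paired, but the main edgeR fit held group means only and did not use this pairing. The correlations ranged from -0.0881 to 0.118 in 6 pairs with small intestine and from -0.29 to 0.244 in 6 pairs with wild type, which were not taken as paired. The pairing of heterozygous and homozygous libraries is not clear-cut. Heterozygous replicate 2 correlated at 0.188 with homozygous replicate 2 and at 0.213 with homozygous replicate 3.

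The members and lists were chosen with earlier results of these data known. Named are all 10 members, up to 6 called genes per comparison from the lists by size of change, the 3 genes nearest in profile to Axin2, Lgr5 and Olfm4, and Cdx2, Hnf4a, Wnt3a, Rspo3 and Nog. Dkk3, Nkd1, Tnfrsf19, Prox1, Sp5, Muc6, Serpinh1 and Ddx3y were chosen after their values were seen. Profile likeness used log2(CPM + 0.5), and figures log2(CPM + 1). Totals per library of 6180498 to 11465309 counts limit genes near the floor of 3 counts, and intervals cover counting error only. Counts of genes with at least 10 reads were compared within each of the 19 pairs of same-group libraries by chi-square, which was 21.7 to 84.1 times its degrees of freedom, and no pair was merged.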

Additional observations from a re-analysis of the deposited data

How the results depend on the processing

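Over the 9 comparisons 87 results of single members were recomputed under 894 alternatives. Of these, 787 kept direction and side of the threshold, 18 gained a call, 13 lost one and 76 changed sign; the sign changes fell on 41 results, none of them called with all libraries. No cause of these changes was tested, beyond the smaller number of libraries when 1 is left out.

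Counts of called genes moved most. DESeq2 called 483, 219 and 139 genes in CDX2 against GFP, HNF4A against GFP and CDX2 against HNF4A, where edgeR called 52, 18 and 3, and 1 member in each of the comparisons with GFP. It called 2601 and 2718 genes in small intestine against CDX2 and HNF4A, with 2 members in the former, where edgeR called 1437 and 1585. In the enhancer experiment it called 181, 337 and 1 genes in homozygous against wild type, heterozygous against wild type and homozygous against heterozygous, where edgeR called 0.

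With the replicate block the gastric comparisons had 578, 100 and 28 called genes, with 1 member in CDX2 against GFP and 1 in CDX2 against HNF4A. With the block on gastric libraries alone they had 1188, 275 and 169 called genes, with 3 members in CDX2 against GFP and 1 in CDX2 against HNF4A. Small intestine shares only numbers with the gastric lines. There the replicate block called 5, 3 and 6 of the 10 members against GFP, CDX2 and HNF4A. Beside these it called 4966, 2942 and 3061 of all 12720 tested genes. It called 5 and 51 of all 12593 tested genes in homozygous and heterozygous against wild type, where replicates are likewise not paired. Under the replicate block the log2 change of Axin2 became 0 in CDX2 against HNF4A (0.01 on gastric libraries alone) and 0.16 in small intestine against GFP, and in small intestine against CDX2 Lgr4 became 0.06 and Znrf3 0.29. Sox9 became 0.03 in heterozygous against wild type. The block changed no other call of a member in the gastric comparisons and none in homozygous against heterozygous.

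Without the 3 libraries richest in Wnt3a, Lgr4, Ascl2 and Rnf43 became 0.08, 0.09 and 0.03 in homozygous against wild type, and Axin2, Znrf3 and Sox9 became -0.18, -0.10 and 0.11 in heterozygous against wild type, where 1 heterozygous library was left, assumed to vary like the other groups; Notum moved there from -0.14 to -1.11.

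Leaving out 1 library at a time gave 11 to 107 called genes in CDX2 against GFP, 4 to 30 in HNF4A against GFP and 0 to 8 in CDX2 against HNF4A. Small intestine had 833 to 2689 called genes against GFP, 103 to 1401 against CDX2 and 142 to 1423 against HNF4A, with 1 to 2 called members against HNF4A. Uncalled log2 changes that crossed 0 had these ranges. In CDX2 against GFP, Lgr5 ran from -0.64 to 0.23 and Lgr4 from -0.37 to 0.03. In HNF4A against GFP, Lgr5 ran from -0.40 to 0.33, Axin2 from -0.85 to 0.07, Rnf43 from -0.60 to 0.02, Znrf3 from -1.13 to 0.14, Sox9 from -0.59 to 0.09 and Smoc2 from -0.28 to 1.35. In CDX2 against HNF4A, Lgr5 ran from -0.59 to 0.27, Axin2 from -0.47 to 0.46, Ascl2 from -0.61 to 0.13, Rnf43 from -0.29 to 0.35, Znrf3 from -0.97 to 0.06 and Smoc2 from -0.19 to 1.19. Axin2 ran from -0.62 to 0.06 in small intestine against GFP and from -0.31 to 0.61 against HNF4A. In small intestine against CDX2, Lgr4 ran from -0.48 to 0.19, Axin2 from -0.22 to 0.46, Ascl2 from -0.31 to 0.43, Olfm4 from -4.67 to 4.03, Znrf3 from -0.64 to 0.05 and Smoc2 from -0.09 to 0.77. In homozygous against wild type, Lgr5 ran from -0.11 to 0.37, Lgr4 from -0.40 to 0.08, Axin2 from -0.11 to 0.71, Ascl2 from -0.31 to 0.09, Rnf43 from -0.28 to 0.03, Znrf3 from -0.22 to 0.45, Notum from -0.51 to 0.64 and Sox9 from -0.10 to 0.43. In heterozygous against wild type, Lgr5 ran from -0.23 to 0.25, Axin2 from -0.31 to 0.51, Znrf3 from -0.20 to 0.29, Notum from -0.48 to 0.33, Sox9 from -0.24 to 0.29 and Smoc2 from -0.38 to 0.20. In homozygous against heterozygous, Lgr4 ran from -0.03 to 0.45, Axin2 from -0.08 to 0.39, Rnf43 from -0.03 to 0.21, Znrf3 from -0.25 to 0.42 and Notum from -0.35 to 0.72. Between libraries of a group, counts differed well beyond sampling noise, and depth limits mainly Olfm4 and, in small intestine, Notum.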
